A study of Homo sapiens with 80 samples.

Results

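Kinesins, centromere proteins and spindle genes were followed in RNA-Seq libraries of Jurkat T cells exposed to 9 g hypergravity, to a 300 g centrifugation or to heat shock. The set held 55 genes, taken from the 60663 genes of the deposited count table by their names and their level. A gene entered when its symbol was KIF or CENP followed by the number or letter of the family member, or was ASPM, CKAP2, CKAP5, TOP2A or MKI67, and when its mean raw count over the 80 libraries was 20 or more. The members were thus selected on that mean count, which uses exposed and control libraries alike, and 14647 genes of the whole table reached it. In all, 65 genes had such a name, and 10 of them (KIF17, KIF5C, KIF26B, KIF13A, KIF4B, KIF1A, KIF19, KIF12, KIF25 and KIF2B) lay under the limit. The member just inside was KIF21A with a mean count of 24.6, and the gene just outside was KIF17 with 15.6. KIF21A is the 1 member that passed through the centrifuged 300 g libraries, since its mean over the other 68 libraries was 12.4. It passed that filter through the group where it was high, so its difference at 300 g is a description. It was called higher at each waiting time after 300 g, and lower after heat than at wait1min, in every setting tried and with each library left out in turn, so every such count of called members is lower by 1 without it, and the main ones are given both ways.

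Jurkat is an established human T lymphocyte line, here clone E6-1, so that all libraries come from 1 clone. In the 9 g experiment, with 6 libraries in each group, cells were spun inside serological pipettes. The groups hypg20s and hypg75s carry their duration of 20 or 75 s in their names, and hypg3, hypg5, hypg7, hypg9, hypg15 and hypg60 likewise carry theirs in min. The control Ctrl stood at 1 g during 15 min and Ctrl60 during 60 min. Cells of hypg20s, hypg75s, hypg3, hypg5, hypg7 and hypg9 first stood unspun, so that their whole incubation was as long as that of Ctrl. Cells of hypg15 and hypg60 were spun during their whole incubation. For the second experiment, 4 libraries each came from directly fixed unspun cells (Ctrl300), from cells fixed 1 min (wait1min), 4 min (wait4min) or 15 min (wait15min) after the end of 5 min at 300 g, and from cells exposed to heat for 5 min, counted from 1 min after they entered a water bath at 42 °C (heat). The labels do not say whether libraries of a group came from separate cultures, so the p-values measure the spread between these libraries, which may be technical. Library 75 of hypg15 held no counts for 19 of the 55 members and was left out, which leaves 5 libraries in that group.

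Total counts per library used lay between 22634465 and 41893490 at 9 g and between 24417717 and 41220541 in the second experiment. All 9 T cell marker genes, such as CD3E and LCK, were present in each of the 79 libraries used, with a lowest value of 35.5 CPM for CD28, while 7 of 9 markers of other cells stayed under 1 CPM. The exceptions were PECAM1, between 128.4 and 248.6 CPM, and COL1A1, between 2.98 and 10.1 CPM. CPM is the count of a gene per 1000000 counts of the library after TMM scaling. By their labels, hypg3 and hypg15 were numbered 69 to 80, apart from all further 9 g libraries (1 to 48), so that anything that differs between these number ranges cannot be told apart from the 3 min and 15 min exposures. The deposited column names of wait1min read instant and those of wait4min read 1min, so that the waiting times, taken from the titles, are uncertain. The deposited column names of Ctrl60 mention HEPES and those of hypg60 do not, so a difference in HEPES cannot be told apart from the 60 min exposure either.

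Kinesins are motor proteins that use ATP to move along microtubules or to take them apart, and the mitotic members among them separate spindle poles, align chromosomes and complete cell division. Centromere proteins mark the chromosomal site where the kinetochore assembles, and the inner centromere network links the histone CENPA to the outer kinetochore that grips spindle microtubules. Many of these genes are transcribed late in the cell cycle, so that their RNA is abundant in dividing cells such as a leukaemia line. By role, the members comprised 12 mitotic kinesins, 17 transport and other kinesins, 15 genes of the inner centromere network, 6 other centromere proteins and 5 spindle and chromosome genes. The other centromere proteins are all remaining CENP symbols. They were grouped by symbol alone, so a role at the centromere was not checked for each, CENPJ included.

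The promoters of the 4 members that were called in the same direction in at least 7 of the 8 comparisons at 9 g are shown here, each from 250 bases before to 50 bases after the RefSeq start (GRCh38.p14). Capitals mark the letters CCAAT or TTTGAA, or their reverse complements ATTGG and TTCAAA. CKAP2 (a spindle protein, chr13:52455738-52456037, plus strand) and CENPW (a histone fold protein of the inner centromere network, chr6:126339865-126340164, plus strand) were the members called lower. KIF18B (a kinesin that shortens microtubules, chr17:44947724-44948023, minus strand) and CENPO (a subunit of the inner centromere network, chr2:24793175-24793474, plus strand) were the members called higher.
CKAP2: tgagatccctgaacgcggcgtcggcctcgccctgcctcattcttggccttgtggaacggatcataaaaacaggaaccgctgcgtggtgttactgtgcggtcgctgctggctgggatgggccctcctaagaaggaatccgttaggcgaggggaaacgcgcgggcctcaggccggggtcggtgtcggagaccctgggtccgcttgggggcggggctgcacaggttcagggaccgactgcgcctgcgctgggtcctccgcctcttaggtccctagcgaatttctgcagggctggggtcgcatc
CENPW: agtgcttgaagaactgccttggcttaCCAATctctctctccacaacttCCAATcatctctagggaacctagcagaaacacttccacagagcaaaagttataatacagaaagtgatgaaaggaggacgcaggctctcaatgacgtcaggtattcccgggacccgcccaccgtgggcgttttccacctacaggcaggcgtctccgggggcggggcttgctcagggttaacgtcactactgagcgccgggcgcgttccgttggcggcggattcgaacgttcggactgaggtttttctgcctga
KIF18B: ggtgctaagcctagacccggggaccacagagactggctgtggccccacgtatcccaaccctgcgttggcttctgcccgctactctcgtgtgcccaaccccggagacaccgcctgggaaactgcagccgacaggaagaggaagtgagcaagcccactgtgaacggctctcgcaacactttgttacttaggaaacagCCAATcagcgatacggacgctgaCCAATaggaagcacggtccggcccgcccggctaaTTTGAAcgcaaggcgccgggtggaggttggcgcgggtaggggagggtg
CENPO: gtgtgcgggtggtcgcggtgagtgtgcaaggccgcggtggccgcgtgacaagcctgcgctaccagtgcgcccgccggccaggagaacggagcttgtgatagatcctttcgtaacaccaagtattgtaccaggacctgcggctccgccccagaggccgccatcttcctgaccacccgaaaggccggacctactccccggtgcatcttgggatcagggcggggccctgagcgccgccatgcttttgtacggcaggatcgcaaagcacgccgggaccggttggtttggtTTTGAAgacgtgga
CKAP2 held none of these letters in this window, CENPW held CCAAT at 2 positions, KIF18B held CCAAT at 2 positions and TTTGAA at 1 position, and CENPO held TTTGAA at 1 position. A promoter of this length was given for 47 of the 55 members. CCAAT in either orientation lay in 27 of the 47 (57.4%) and in 35.7% of all 27305 promoters, and TTTGAA in either orientation lay in 18 of the 47 (38.3%) and in 15.4% of all promoters. These are matches of letters and were not tested as binding sites.

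At 1 g (Ctrl), the members spanned a wide range of levels in CPM per kilobase of exon. This scale divides by the summed exon bases of a gene and not by the transcript expressed, so ranks between genes are approximate. CENPB, which binds a short motif in centromeric satellite DNA, was highest with 76.1, followed by the microtubule depolymerase KIF2C with 62.7 and the chromosome-bound kinesin KIF22 with 62.1. KIF2C and KIF22 differed by less than the spread between libraries, whose SD was 5.86% of the mean for KIF2C and 3.94% for KIF22. TOP2A, the topoisomerase that untangles DNA before division, reached 36.1. The lowest members were KIF6 with 0.156 and KIF21A with 0.0409.

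**Figure D1:**
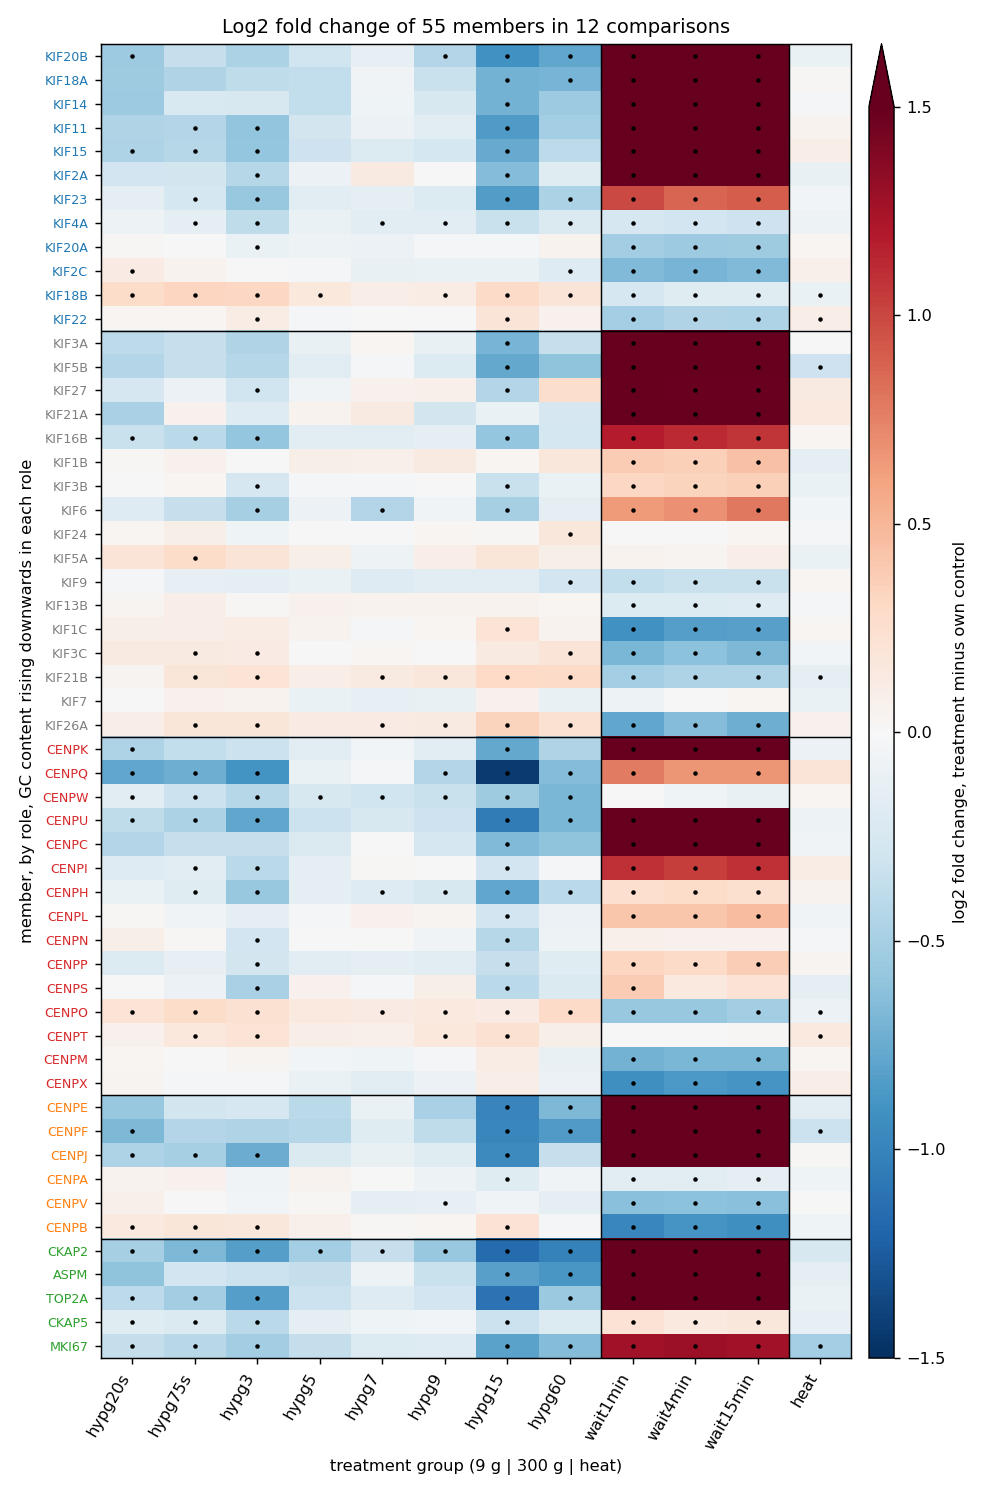
Log2 fold change of the 55 members, grouped by role, in the 12 treatment groups, each against its own control. Dots mark calls at an adjusted p-value under 0.05, and the colour scale is cut off below the largest value, 3.49 for ASPM at wait1min. At 9 g most called members are lower, and at 300 g many of them are higher.

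At 9 g, more members were called lower than higher in each of the 8 comparisons. In hypg15, 34 of 55 members were called lower and 8 higher, against 27.9% lower and 25.4% higher of all genes tested, and the median log2 fold change was −0.34 over the members and 0.017 over all genes. The genes that fell include TOP2A, MKI67, CKAP2, the kinetochore motor CENPE and the spindle motor KIF11. In 28 of 55 members the libraries of hypg15 and Ctrl did not overlap, against 32.8% of all genes tested. The test was edgeR's quasi-likelihood test with Benjamini-Hochberg adjustment over all genes, here and below, and a gene was called at an adjusted p-value under 0.05. In bulk RNA, fewer dividing cells and less RNA per dividing cell cannot be told apart.

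The counts differed along the time course. In hypg20s, 13 members were lower and 4 higher (8.58% and 6.66% of all genes), with a median log2 fold change of −0.15. In hypg75s, 15 were lower and 8 higher (14.4% and 16.8%), with a median of −0.13. In hypg3, 23 were lower and 8 higher (24.4% and 16.9%), with a median of −0.29. In hypg5, 2 were lower and 1 higher (1.69% and 4.33%), with a median of −0.10. In hypg7, 5 were lower and 3 higher (6.19% and 6.64%), with a median of −0.059. In hypg9, 7 were lower and 5 higher (8.34% and 11.3%), with a median of −0.11. In hypg60 against Ctrl60, 16 were lower and 6 higher (13.0% and 17.1%), with a median of −0.19. The share of members called lower was above that of all genes in each of the 8 comparisons, and the share called higher was below it in all but hypg20s. The shares were close in hypg5, hypg7 and hypg9, where 6.02%, 12.8% and 19.6% of all genes were called in either direction.

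Some of these counts rest on single libraries, on the scaling or on the model. With all groups of the experiment in 1 model, 4 members were lower and 2 higher in hypg20s (2.78% and 4.62% of all genes). In hypg9, 4 were lower and 4 higher with that model (5.77% and 9.43%). Without control library 3, 6 members were lower and 2 higher in hypg20s (4.06% and 4.67% of all genes), 0 were lower in hypg5 (0.993%), 1 was higher in hypg7 (5.93%) and 34 were lower in hypg15 (24.8%). Without library 16, 26 members were lower in hypg20s (16.4% of all genes), and without library 44, 29 were lower in hypg60 (22.2%). With library 75 kept, 19 members were lower in hypg15 (15.3%). With total counts as the only scaling, 0 members were lower and 4 higher in hypg5 (1.65% and 6.88% of all genes), 2 and 4 in hypg7 (5.09% and 10.5%), 4 and 5 in hypg9 (5.54% and 15.4%), and 10 and 6 in hypg60 (9.01% and 20.6%).

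Exposures were also tested against each other. Between hypg7 and hypg75s, 8 of 55 members differed (7.46% of all genes). CENPQ, CENPJ and CKAP5 were higher in hypg7, by 0.71, 0.40 and 0.16 on the log2 scale, and KIF5A, KIF18B, CENPB, KIF2C and CENPO were lower, by 0.34 at most. With the GC offset, which takes a smooth curve of counts against GC content out of each library, 0 members differed between them. Between hypg60 and hypg9, 1 of 54 members tested differed (5.07% of all genes), namely CENPW, which was lower by 0.30 ± 0.060 (SE) on the log2 scale in hypg60 (adjusted p = 0.00988, edgeR). Between Ctrl60 and Ctrl, 0 of 55 members were called by edgeR (0.0124% of all genes) or DESeq2, and 0 had an unadjusted p-value under 0.05 by either tool.

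Among the spindle and chromosome genes, CKAP2 was lower in all 8 comparisons, of which 7 share the Ctrl libraries. The calls in hypg5 and hypg7 were lost without control library 3 (adjusted p = 0.0917 and 0.0788, edgeR) and with total counts (adjusted p = 0.0804 and 0.140, edgeR), and that in hypg7 also with all groups in 1 model (adjusted p = 0.163, edgeR). The log2 fold changes in hypg5 and hypg7 were −0.52 and −0.34. Without control library 3 they were −0.43 and −0.27, and with total counts −0.48 and −0.29. CKAP2 (ENSG00000136108, chr13:52455429-52476628 in GRCh38) ranged from 30.0 over 33.2 to 43.3 CPM in Ctrl and from 8.96 over 15.6 to 21.1 CPM in hypg15, where each such range gives the lowest, the median and the highest library. It ranged from 29.8 over 33 to 44.7 CPM in Ctrl60 and from 14.7 over 15.5 to 27.3 CPM in hypg60. All libraries of hypg15 lay below all of Ctrl, and all of hypg60 below all of Ctrl60. The fall was 1.15 ± 0.16 (SE) on the log2 scale in hypg15 (adjusted p = 4.39e-05, edgeR) and 1.01 ± 0.15 in hypg60 (adjusted p = 0.000236, edgeR).

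TOP2A (ENSG00000131747) was lower in 5 comparisons. Its libraries ranged from 194 over 224 to 296 CPM in Ctrl and from 75 over 108 to 143 CPM in hypg15, without overlap, and the fall was 1.11 ± 0.13 (SE) on the log2 scale (adjusted p = 1.45e-05, edgeR). MKI67, the source of the proliferation marker Ki-67, was lower in 5 comparisons. It ranged from 229 over 260.0 to 298 CPM in Ctrl and from 96.9 over 159 to 172 CPM in hypg15, without overlap, and fell by 0.81 ± 0.12. ASPM, which organises spindle poles, was lower in 2 comparisons, hypg15 and hypg60, and with the GC offset in hypg60 only, with −0.29 in hypg15. Its Ctrl libraries ranged widely, from 22.8 over 29.6 to 54.7 CPM, and overlapped with those of hypg15, which ran from 12.5 over 19.8 to 32.4 CPM. CKAP5, which speeds microtubule growth, was lower in 4 comparisons, among them hypg3 with a fall of 0.41 ± 0.074.

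Of the mitotic kinesins in hypg15, 8 of 12 were lower and 2 higher, against 27.9% lower and 25.4% higher of all genes, with a median log2 fold change of −0.68. KIF11, which pushes spindle poles apart, fell by 0.85 ± 0.14 (SE) on the log2 scale, KIF23, which bundles microtubules in the midzone, fell by 0.84 ± 0.12, and KIF20B fell by 0.91 ± 0.17. The falls were smaller with the GC offset, 0.37 for KIF11, 0.57 for KIF23 and 0.33 for KIF20B. KIF4A, a motor bound to chromosomes, was lower in 6 comparisons, by 0.33 ± 0.055 in hypg15, and its counts could share reads with its near-identical intronless copy KIF4B. KIF2C was higher in hypg20s, by 0.12 ± 0.039, a call that was lost with the GC offset (0.063), without control library 3 and in 4 other settings, and lower in hypg60, by 0.19 ± 0.056. With the offset it was lower in hypg7, hypg9, hypg15 and hypg60 and higher in none. KIF20A, needed for cytokinesis, was lower in 1 comparison, hypg3, by 0.10 ± 0.033, a call that was lost with DESeq2, RLE scaling, no filter and 1 model for all groups, while with the GC offset it was lower in 3 comparisons.

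KIF18B was called higher in 7 comparisons, with hypg7 as the exception, and in all 8 with total counts as the scaling. With the GC offset it was higher in 2, hypg20s and hypg75s, while KIF21B was higher in 3. Its libraries (ENSG00000186185, chr17:44924709-44947773) ranged from 133 over 137 to 144 CPM in Ctrl, from 168 over 172 to 175 CPM in hypg75s and from 161 over 168 to 189 CPM in hypg15. Neither exposed group overlapped with Ctrl. The rise was 0.33 ± 0.026 (SE) on the log2 scale in hypg75s (adjusted p = 1.7e-06, edgeR), and 0.19 with the offset.

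**Figure D2:**
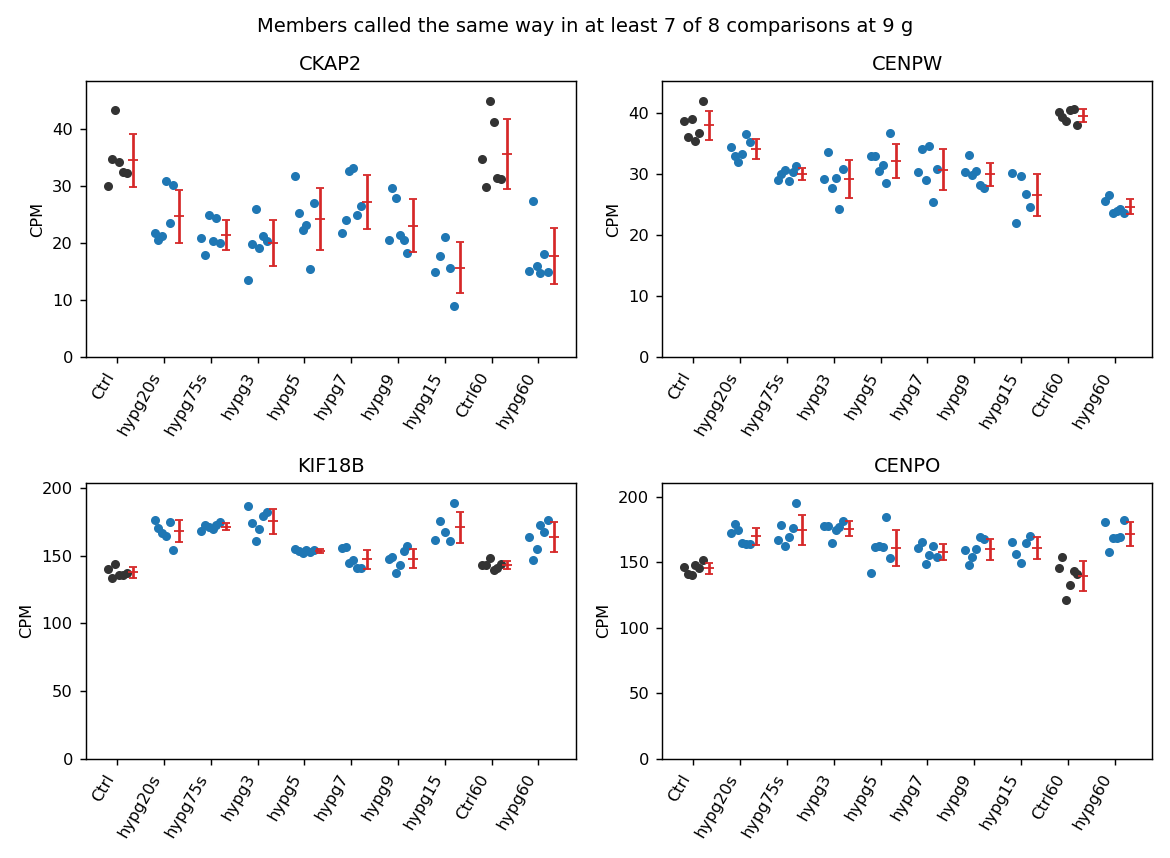
CPM of CKAP2, CENPW, KIF18B and CENPO in each 9 g library and its 1 g controls, with the mean and SD of each group and library 75 left out. CKAP2 differs from its controls by −1.15 in hypg15 and −1.01 in hypg60 on the log2 scale, while KIF18B lies above Ctrl in hypg75s by 0.33.

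The inner centromere network held the deepest fall. CENPQ (ENSG00000031691, chr6:49463370-49493107), a subunit of the same subcomplex as CENPO, ranged from 4.37 over 4.99 to 6.21 CPM in Ctrl, from 2.91 over 3.04 to 3.24 CPM in hypg20s and from 1.26 over 2.04 to 2.25 CPM in hypg15. Both exposed groups lay wholly below Ctrl. The fall was 0.78 ± 0.089 (SE) on the log2 scale in hypg20s and 1.43 ± 0.14 in hypg15 (adjusted p = 4.22e-06, edgeR), while the log2 fold change was −0.094 in hypg5 and −0.033 in hypg7, where the gene was not called. The fall was 0.45 in hypg20s and 0.86 in hypg15 with the GC offset. CENPU, its partner in that subcomplex, was lower in 5 comparisons and by 1.05 ± 0.10 in hypg15, or 0.59 with the offset. CENPH was lower in 6 comparisons, by 0.78 ± 0.063 in hypg15. CENPC, the scaffold that contacts the centromeric nucleosome, was lower in 1 comparison, hypg15, by 0.66 ± 0.21, and was not called with the GC offset, with −0.19. Over the network, 11 of 15 genes were lower and 2 higher in hypg15, against 27.9% lower and 25.4% higher of all genes.

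CENPW (ENSG00000203760, chr6:126340115-126348875), the shortest member with 854 bases of exon, was lower in all 8 comparisons like CKAP2. Its call in hypg5 was lost without control library 3 and with total counts (adjusted p = 0.0829 and 0.0859, edgeR). The log2 fold change there was −0.241, and −0.230 and −0.211 in these settings. The call in hypg20s was lost without control library 3 (adjusted p = 0.0624, edgeR), with −0.165 in place of −0.172. Both calls were also lost with no filter on low counts. With the GC offset only hypg9 and hypg60 were called, with −0.050 in hypg15. It ranged from 35.4 over 37.8 to 41.9 CPM in Ctrl and from 22 over 26.7 to 30.1 CPM in hypg15. In Ctrl60 it ranged from 38.1 over 39.9 to 40.7 CPM and in hypg60 from 23.6 over 24.2 to 26.6 CPM. Neither pair of groups overlapped, and the fall was 0.53 ± 0.075 (SE) and 0.69 ± 0.053 on the log2 scale (adjusted p = 4.78e-05 and 1.37e-06, edgeR). CENPO (ENSG00000138092, chr2:24793136-24822376) went the other way in 7 comparisons. It ranged from 140.3 over 146 to 152 CPM in Ctrl and from 163 over 173 to 195 CPM in hypg75s, without overlap, with a rise of 0.27 ± 0.031 on the log2 scale, or 0.17 with the GC offset, with which it was higher in 6 comparisons. CENPT was higher in 4 comparisons, by 0.23 in hypg15, but in none with the GC offset, with −0.048 in hypg15. CENPM and CENPX were not called at 9 g, but were lower in all 8 comparisons with the offset. CENPS overlaps a readthrough gene, and its counts are uncertain for that reason.

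Of the other centromere proteins, CENPE, CENPF, CENPJ and CENPA fell and CENPB rose in hypg15, and CENPB fell there with the GC offset. CENPF, a large protein of the outer kinetochore, ranged from 28.7 over 39.6 to 71.1 CPM in Ctrl and from 13.9 over 24.6 to 35 CPM in hypg15, with overlap, and fell by 0.97 ± 0.25 (SE) on the log2 scale (adjusted p = 0.00372, edgeR), or by 0.61 with the offset. CENPE ranged from 6.03 over 8.44 to 14.4 CPM in Ctrl and from 3.38 over 4.87 to 6.58 CPM in hypg15, with overlap, and fell by 0.98 ± 0.23, or by 0.41 with the offset. CENPA, the centromeric histone, was called in hypg15 alone, with a fall of 0.18 ± 0.065, a call that was lost without any 1 of the libraries 4, 5, 6, 79 or 80. CENPB was higher in 4 comparisons, by 0.22 ± 0.057 in hypg15, where its libraries ran from 237 over 243 to 301 CPM against from 204 over 218 to 231 CPM in Ctrl. With the offset it was lower in hypg3, hypg15 and hypg60, by 0.15 in hypg15, and higher in none.

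Of the transport and other kinesins in hypg15, 6 of 17 were lower and 3 higher, shares near the 27.9% lower and 25.4% higher of all genes, with a median log2 fold change of 0.023. KIF5B, the heavy chain of the main cargo motor, fell by 0.77 ± 0.17 (SE) on the log2 scale in hypg15, or by 0.33 with the GC offset, whereas its relative KIF5A was called against its control in hypg75s only, where it rose by 0.27, a call that was lost with the offset, with no filter and without control library 3. KIF21B and KIF26A were higher in 6 and 6 comparisons, by 0.30 and 0.33 in hypg15. With the offset, KIF21B was higher in hypg7, hypg9 and hypg60 only, with 0.0097 in hypg15, and KIF26A in none, with −0.073 in hypg15. KIF6 was lower in 3 comparisons, among them hypg7 with a fall of 0.44 ± 0.12 that was not called with total counts or no filter, and KIF1B, the longest member, was not called at 9 g.

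Genes of other mitotic lists, given for comparison, are set here beside the shares of all genes in hypg15, 27.9% lower and 25.4% higher. Of 22 genes of the spindle checkpoint and outer kinetochore, 18 were lower and 2 higher, with a median log2 fold change of −0.49, and the checkpoint kinase TTK fell by 1.17. Of 14 mitotic kinases, cyclins and passenger proteins, 6 were lower and 3 higher, with CDK1 lower by 0.94 and PLK1 higher by 0.24. Of 16 spindle microtubule proteins, 6 were lower and 2 higher, with HMMR lower by 1.39 and NUSAP1 higher by 0.44. Of 17 DNA replication genes, 6 were lower and 1 higher.

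After 300 g, more members were higher than lower. At wait1min, 32 of 55 members were called higher and 17 lower, against 41.4% higher and 40.1% lower of all genes tested, with a median log2 fold change of 0.38 over the members and 0.0055 over all genes. At wait4min, 31 were higher and 17 lower (41.7% and 40.6%), and at wait15min 31 were higher and 17 lower (41.8% and 40.5%). Without KIF21A, 31, 30 and 30 of 54 members were higher and 17 lower at the 3 waiting times, and the median at wait1min was 0.35. These 3 comparisons and that of heat share the Ctrl300 libraries. With total counts as the only scaling, which moved the median of all genes to 0.25, 0.27 and 0.27 on the log2 scale, the counts were 38 higher and 12 lower (49.7% and 30.4% of all genes) at wait1min, 39 and 12 (51.0% and 30.0%) at wait4min, and 40 and 12 (50.9% and 29.9%) at wait15min. Without KIF21A, 37, 38 and 39 of 54 were then higher.

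ASPM (ENSG00000066279, chr1:197084121-197146694) had the largest log2 fold change without the GC offset, with CENPE within the SEs of it, whereas CENPF had a larger one than ASPM with the offset. The values of ASPM were 31.7, 24.8, 25.6 and 23.8 CPM in the 4 Ctrl300 libraries and 281, 334, 304 and 293 CPM in the 4 wait1min libraries. The rise was 3.49 ± 0.074 (SE) on the log2 scale, 11.2-fold (adjusted p = 2.24e-16, edgeR). CENPE had 15.3, 10.5, 11.2 and 10.2 CPM in Ctrl300 and 120.2, 147, 122 and 123 CPM at wait1min, a rise of 3.41 ± 0.095. CENPF had 51.7, 43.6, 40.7 and 42.7 CPM in Ctrl300 and 412, 500.2, 425 and 434 CPM at wait1min, a rise of 3.28 ± 0.070. For these 3 genes every centrifuged library lay above every control, at each waiting time.

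KIF14 rose by 3.05 ± 0.059, KIF18A, which dampens chromosome movements, by 3.02 ± 0.085 and KIF11 by 2.45 ± 0.048 (SE, log2 scale, wait1min). CENPC rose by 2.54 ± 0.078, KIF5B by 2.41 ± 0.066, CKAP2 by 1.85 ± 0.079, TOP2A by 1.75 ± 0.079, KIF23 by 0.98 ± 0.060, MKI67 by 1.26 ± 0.035 and CKAP5 by 0.21 ± 0.042. The rises with the GC offset were 1.87 for KIF14, 1.69 for KIF18A, 1.27 for KIF11, 1.38 for CENPC, 1.34 for KIF5B, 0.50 for CKAP2, 0.68 for TOP2A, 0.46 for KIF23 and 1.49 for MKI67. The call of CKAP5 was lost with that offset and with the exon length offset, made in the same way from exon length. CENPQ, the deepest fall at 9 g, rose by 0.78 ± 0.12, but was lower by 0.84 with the GC offset. CENPW was not called at any waiting time, with −0.0089, −0.062 and −0.11. It was higher with total counts as the scaling, by 0.24 at wait1min, and lower with the GC offset, by 1.25, 1.24 and 1.29.

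Without the GC offset, the largest fall after 300 g was that of CENPB, which fell less than CENPW, CENPQ, KIF1C, KIF2C, KIF20A and CENPH at wait1min with the offset. CENPB had 218, 242, 237 and 243 CPM in Ctrl300 and 124, 126, 117 and 120.3 CPM at wait1min, without overlap, a fall of 0.98 ± 0.039 (SE) on the log2 scale. CENPX fell by 0.92 ± 0.051, KIF1C by 0.91 ± 0.039, KIF26A by 0.78 ± 0.041, KIF2C by 0.66 ± 0.040, KIF20A by 0.52 ± 0.041 and KIF4A by 0.25 ± 0.037, a call that was lost with total counts. CENPA fell by 0.15 ± 0.047, and its direction turned with total counts as the scaling and with the exon length offset. The falls with the GC offset were 0.22 for CENPB, 0.17 for CENPX, 0.34 for KIF1C, 0.30 for KIF2C and 0.29 for KIF20A, and the calls of KIF26A, CENPA and CENPM were lost.

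**Figure D3:**
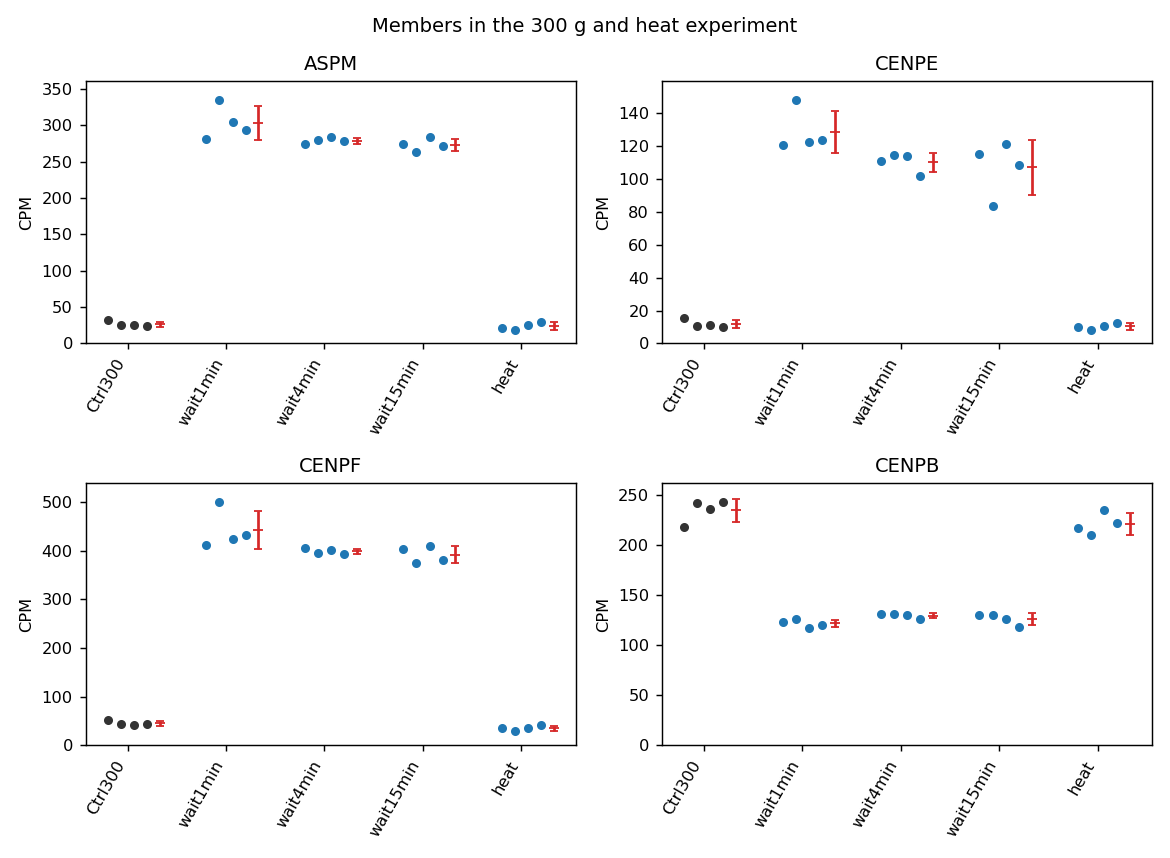
CPM of ASPM, CENPE, CENPF and CENPB in each library of the 300 g and heat experiment, on linear axes from 0, with the mean and SD of each group. At wait1min, ASPM lies 11.2-fold above Ctrl300, and CENPB differs from Ctrl300 by −0.98 on the log2 scale.

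Between wait15min and wait1min, 0 of 55 members were called by edgeR (0.149% of all genes) or DESeq2, while 11 had an unadjusted p-value under 0.05 by edgeR and 10 by DESeq2.

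By role, and beside 41.4% higher and 40.1% lower of all genes, the 5 spindle and chromosome genes were all higher at wait1min, with a median log2 fold change of 1.75. Of the mitotic kinesins, 7 of 12 were higher and 5 lower, and of the inner centromere network 9 of 15 were higher and 3 lower. The transport and other kinesins had 8 of 17 higher, KIF21A among them, and 6 lower, with a median of 0.058. The other centromere proteins had 3 of 6 higher and 3 lower. The shares of these last roles lay near those of all genes. Of the spindle checkpoint and outer kinetochore genes, 18 of 22 were higher and 2 lower, with the kinetochore scaffold KNL1 higher by 2.76. Of the mitotic kinases, cyclins and passenger proteins, 11 of 14 were lower and 2 higher, with CDC20 lower by 1.11 and CDK1 higher by 1.33. Of the DNA replication genes, 13 of 17 were lower and 4 higher, and of the spindle microtubule proteins 7 of 16 were lower and 7 higher. Of the 9 T cell markers, 7 were lower and 1 higher, and their part in the change of the members was not tested.

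After heat shock, the share of members called lower was close to that of all genes. Against Ctrl300, 6 of 55 were lower and 2 higher (10.2% and 10.6% of all genes). MKI67 had 349, 342, 344 and 348 CPM in Ctrl300 and 242, 259.7, 223 and 235 CPM after heat. The groups did not overlap, and the fall was 0.51 ± 0.039 (SE) on the log2 scale (adjusted p = 2.1e-07, edgeR). CENPF fell by 0.33 ± 0.088, KIF5B by 0.31 ± 0.082, KIF21B by 0.14 ± 0.032, KIF18B by 0.10 ± 0.031 and CENPO by 0.091 ± 0.029, whereas CENPT rose by 0.15 ± 0.041 and KIF22 by 0.10 ± 0.029. The calls of KIF18B and CENPO were lost with total counts and without any 1 of 5 single libraries, those of KIF21B, KIF18B and CENPO with the exon length offset, and that of CENPF with DESeq2 (adjusted p = 0.0545). The rises rest on single libraries, as 0 members were higher without Ctrl300 library 51 or 52 and 1 without heat library 65 or 68. With all groups of the experiment in 1 model, 16 were lower and 0 higher (21.6% and 7.85% of all genes), and with no filter 10 and 1 (5.97% in each direction). With total counts, 4 were lower and 4 higher (7.04% and 13.5%). Tested against wait1min, 48 of 55 members differed (81.1% of all genes), or 47 of 54 without KIF21A, with ASPM lower after heat by 3.72 on the log2 scale.

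The change was then related to exon length, the summed exon bases of the deposited table. The members had a median of 5878 bases, against 4702 bases over all genes with a mean count of 20 or more. The relations over 55 members are descriptions, since the genes share libraries and are not replicates. Spearman's rho between log2 fold change and exon length ran from −0.19 in hypg20s to 0.22 in hypg7 at 9 g, with −0.015 in hypg15, where it was −0.26 over all genes. After 300 g it was 0.36, 0.37 and 0.37 over the members at the 3 waiting times, and 0.16 over all genes at wait1min. Without KIF21A it was 0.34, 0.35 and 0.35. After heat it was −0.32 over the members and −0.24 over all genes. With the genomic span of the gene in place of the exon length, rho was 0.48 at wait1min (0.47 without KIF21A) and −0.21 in hypg15.

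At wait1min, 12 of the 28 members of up to 5878 bases were higher and 12 lower, with a median log2 fold change of −0.0044, while 20 of the 27 longer members were higher and 5 lower, with a median of 1.09. Without KIF21A, 19 of 26 longer members were higher and 5 lower, with a median of 1.04. Of all genes tested, 35.2% of the shorter were higher and 43.3% lower, with a median of −0.12, and 53.8% of the longer were higher and 33.8% lower, with a median of 0.29. The longest and the shortest members had these values without the GC offset. KIF1B (17955 bases) changed by 0.38, the depolymerase KIF2A (13050 bases) by 2.02, MKI67 (12845 bases) by 1.26 and KIF21B (12164 bases) by −0.51, while KIF5A (12245 bases) was not called, with 0.058. All 5 were higher with the GC offset, KIF1B by 0.51, KIF2A by 1.36, MKI67 by 1.49, KIF21B by 0.20 and KIF5A by 0.47. With the exon length offset, KIF1B and KIF5A were lower. Of the shortest, CENPX (1531 bases) changed by −0.92, CENPQ (1741 bases) by 0.78, CENPS (1748 bases) by 0.38 and CENPM (1750 bases) by −0.71, while CENPW was not called. With the GC offset, CENPX was lower by 0.17, CENPQ by 0.84 and CENPW by 1.25, CENPS was higher by 0.85, and CENPM was not called, with 0.023.

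At 9 g and after 300 g, rho with GC content was larger in size than rho with exon length, by little in hypg7, while after heat it was smaller. It was taken from the longest transcript of each gene and ran from 32.9% in CENPK to 68.3% in KIF26A, with a median of 46.4% and a rho of −0.08 with exon length. Spearman's correlation coefficient between log2 fold change and GC content was 0.86 in hypg20s, 0.80 in hypg75s, 0.73 in hypg3, 0.74 in hypg5, 0.26 in hypg7, 0.73 in hypg9, 0.86 in hypg15 and 0.76 in hypg60. After 300 g it was −0.85, −0.84 and −0.85 (−0.86, −0.85 and −0.85 without KIF21A), and after heat 0.14. Over all genes with a GC content it was 0.67 in hypg15 and −0.69 at wait1min, with the same sign as over the members.

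Of the 28 members with a GC content of up to 46.4%, 27 were lower and 0 higher in hypg15, and 26 were higher and 1 lower at wait1min, or 25 of 27 and 1 without KIF21A. Of all genes tested up to that GC content, 60.0% were lower and 4.62% higher in hypg15, and 76.0% were higher and 10.4% lower at wait1min. Of the other 27 members, 7 were lower and 8 higher in hypg15, and 6 were higher and 16 lower at wait1min. Of all genes above it, 7.89% were lower and 38.6% higher in hypg15, and 17.2% were higher and 61.4% lower at wait1min. The 5 spindle and chromosome genes lie between 36.8% (CKAP2) and 48.3% (MKI67). The part of GC content in the change was not tested beyond the offset that follows.

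**Figure D4:**
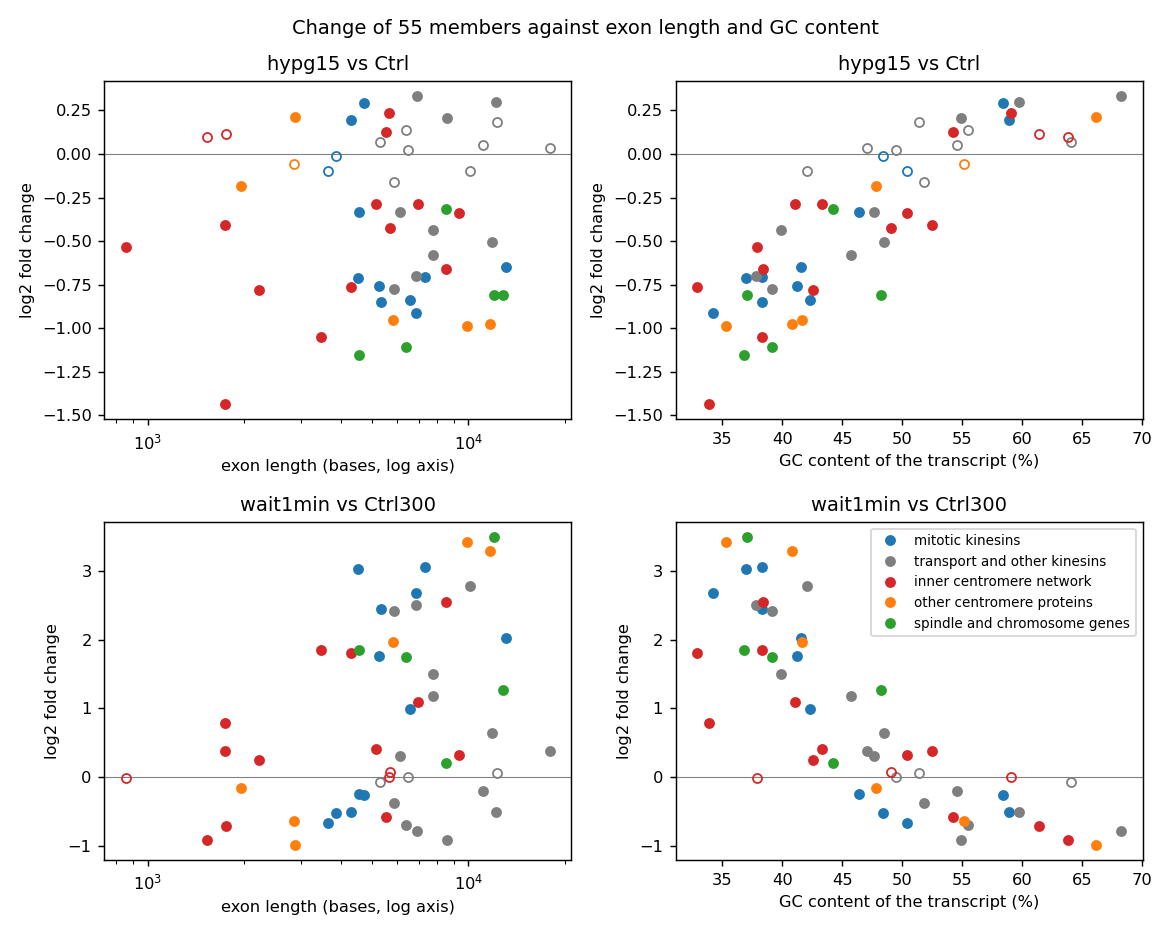
Log2 fold change of each member against exon length and against the GC content of its longest transcript in percent, for hypg15 against Ctrl and wait1min against Ctrl300. The points rise with GC content in hypg15 (rho 0.86) and fall with it at wait1min (rho −0.85), while rho with length was −0.015 in hypg15.

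All tests were repeated with the GC offset. In hypg15, 32 members were then lower and 0 higher (29.6% and 13.1% of all genes), with 24 of the lower ones shared with the test without it, and in hypg3 26 were lower and 0 higher (27.0% and 6.18%), with 19 shared. In hypg20s 13 were lower and 2 higher (9.80% and 4.25%), in hypg75s 14 and 2 (16.6% and 9.35%), and in hypg5 6 and 1 (10.5% and 5.09%). In hypg7 the counts were 11 and 2 (13.1% and 8.65%), in hypg9 15 and 2 (16.1% and 12.2%) and in hypg60 19 and 3 (19.5% and 19.6%). The median log2 fold change over all genes then stood at −0.038 in hypg20s, −0.023 in hypg75s, −0.070 in hypg3, −0.020 in hypg5 and −0.070 in hypg15. It was 0.0042 in hypg7, −0.0047 in hypg9 and −0.0023 in hypg60. Members with values of that size thus changed about as all genes did.

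With the offset, CKAP2 was lower in all 8 comparisons as well, by 0.23 in hypg20s, 0.65 in hypg15 and 0.68 in hypg60. CENPW was lower in hypg9 and hypg60 only, by 0.21 and 0.38. TOP2A fell by 0.68 and MKI67 by 0.85 in hypg15.

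After 300 g, 36 members were higher and 9 lower with the offset at wait1min (44.3% and 28.2% of all genes), 36 and 11 at wait4min (45.5% and 29.3%) and 37 and 11 at wait15min (45.2% and 29.1%), where the median over all genes stood at 0.13. Without KIF21A, 35, 35 and 36 of 54 were higher. At wait1min, 27 of the 32 members called higher and 6 of the 17 called lower were shared with the test without the offset, or 26 of 31 and 6 of 17 without KIF21A. ASPM rose by 2.17, CENPF by 2.49, CENPE by 1.91 and KIF18B by 0.43. After heat, 10 were lower and 2 higher (13.6% and 11.4%), and MKI67 fell by 0.51. The higher ones were KIF15 and CENPI, and the calls of CENPT and KIF22 were lost.

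**Figure D5:**
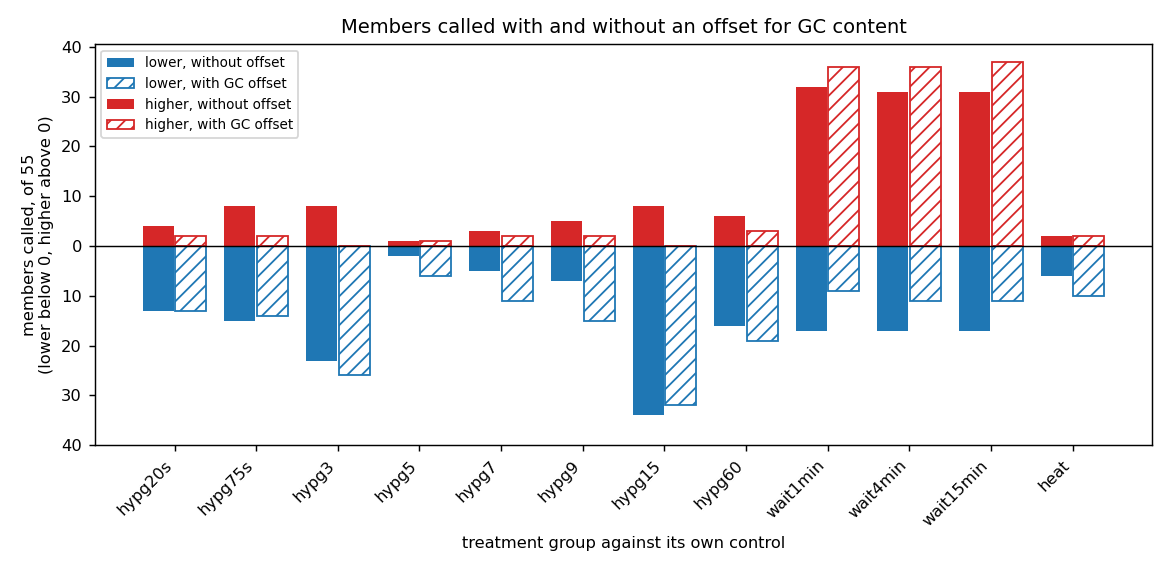
Number of the 55 members called lower and higher in each treatment group against its own control, without an offset and with the GC offset. In hypg15, 34 members are lower without and 32 with the offset, and 8 are higher without and 0 with it.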

How the data were processed

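RNA of 80 Jurkat libraries was depleted of rRNA and sequenced with strand information. The authors deposited 1 table of raw counts per gene with a length column in exon bases. Its header names featureCounts 2.0.3 with Ensembl 104 and strand setting 2, and the submitters' processing notes name Trim Galore 0.6.5, STAR 2.7.3a, featureCounts 2.0.1, DESeq2 1.28.1 and hg38. The counts were used as deposited, except 1 record broken over 3 lines (ANK2), which was left out. Members and gene lists were chosen with earlier results of these data known.

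Genes were filtered with filterByExpr (minimum count 10), scaled by TMM within the 2 groups compared and tested with edgeR 4.0.16 (glmQLFit, glmQLFTest, limma 3.58.1, R 4.3.3), with Benjamini-Hochberg adjustment over all genes tested and a threshold of 0.05. CPM of single libraries are on a TMM scale over 79 libraries. Library 75 was left out. Values are given for members called in the same direction in at least 7 of 8 comparisons at 9 g, the 3 largest called falls and rises of each comparison, the 5 shortest and 5 longest members, and ASPM, CKAP2, CKAP5, TOP2A, MKI67, CENPE, CENPF, KIF11, KIF20A, KIF23, KIF2C, KIF5B, CENPA, CENPB and CENPC. Other members and the examples of other lists were chosen after their values were seen. GC content came from the longest GENCODE 29 transcript, another annotation release than that counted. Alternatives were DESeq2 1.42.0, RLE and total-count scaling, no filter, 1 model for all groups, offsets for exon length or GC content (lowess span 0.3), and single libraries left out. The scripts were tested on simulated counts. Total counts were 22634465 to 41893490 in the 79 libraries used, so precision is least for members with few counts.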

Additional observations from a re-analysis of the deposited data

Results flagged for a closer look

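In 180 groups of a gene or of the median over the members, 15 held a library whose distance to its neighbour was large for the group's range by Dixon's criterion, and chance flags about 1 in 20 groups. Control library 3 was highest in Ctrl for the median member difference from the group (0.12 on the log2 scale), for CKAP2 (43.3 CPM) and for TOP2A (295.8 CPM). Library 44 was highest in hypg60 for CKAP2 (27.3 CPM), TOP2A (289.9 CPM), CENPF (41.2 CPM) and ASPM (30.2 CPM). CENPQ stood apart with 6.73 CPM in library 30 of hypg5 and with 11.1 CPM in library 68 of heat. ASPM stood apart with 35.0 CPM in library 16 of hypg20s. CENPE was highest with 12.8 CPM in library 25 of hypg5, 19.7 CPM in library 9 of Ctrl60 and 147.5 CPM in library 54 of wait1min. CENPB was lowest with 126.0 CPM in library 60 of wait4min, and MKI67 was lowest with 96.9 CPM in library 80 of hypg15.

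Tests of the difference between exposures flagged 8 members between hypg7 and hypg75s, 1 member, CENPW, between hypg60 and hypg9, and 48 members between heat and wait1min.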

How the results depend on the processing

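Leaving out control library 3 or the libraries 16, 44 and 9, and the GC offset, RLE and total-count values of single genes, were chosen after seeing the data. With RLE or total-count scaling, no filter, DESeq2, an exon length offset or 1 model for all groups, the counts of members lower and higher in hypg75s, hypg3, hypg15 and the 3 groups after 300 g stayed within 1.5 times their value. The share of all genes tested that was called in the same way stands in parentheses after each count. With all groups of the experiment in 1 model, the members called were 4 lower in hypg20s (2.78%), 2 higher in hypg20s (4.62%), 2 higher in hypg5 (5.55%), 0 higher in hypg7 (6.47%), 4 lower in hypg9 (5.77%), 16 lower in heat (21.6%) and 0 higher in heat (7.85%). With the GC offset, the members called were 2 higher in hypg20s (4.25%), 2 higher in hypg75s (9.35%), 0 higher in hypg3 (6.18%), 6 lower in hypg5 (10.5%), 11 lower in hypg7 (13.1%), 15 lower in hypg9 (16.1%), 2 higher in hypg9 (12.2%), 0 higher in hypg15 (13.1%), 3 higher in hypg60 (19.6%), 9 lower in wait1min (28.2%), 11 lower in wait4min (29.3%), 11 lower in wait15min (29.1%), 10 lower in heat (13.6%), 0 different in hypg7 against hypg75s (2.22%) and 4 different in hypg60 against hypg9 (12.8%). With a log2 fold change over 0.5 asked in addition, the members called were 3 lower in hypg20s (1.7%), 0 higher in hypg20s (0.322%), 4 lower in hypg75s (1.57%), 0 higher in hypg75s (2.99%), 12 lower in hypg3 (7.58%), 0 higher in hypg3 (2.56%), 1 lower in hypg5 (0.264%), 0 higher in hypg5 (1.05%), 0 lower in hypg7 (0.9%), 0 higher in hypg7 (1.76%), 1 lower in hypg9 (1.29%), 0 higher in hypg9 (3.7%), 0 higher in hypg15 (8.38%), 0 higher in hypg60 (9.22%), 10 lower in wait4min (27.2%), 10 lower in wait15min (27.6%), 1 lower in heat (0.414%) and 0 higher in heat (5.93%). With no filter on low counts, the members called were 1 lower in hypg5 (0.459%), 0 higher in hypg5 (1.2%), 0 higher in hypg7 (2.26%), 2 higher in hypg9 (4.31%), 3 higher in hypg60 (7.48%), 10 lower in heat (5.97%) and 1 higher in heat (5.97%). With total-count scaling, the members called were 0 lower in hypg5 (1.65%), 4 higher in hypg5 (6.88%), 2 lower in hypg7 (5.09%), 4 lower in hypg9 (5.54%), 10 lower in hypg60 (9.01%) and 4 higher in heat (13.5%). With DESeq2, the members called were 9 lower in hypg7 (8.24%), 11 lower in hypg9 (10.4%), 3 higher in hypg9 (9.77%) and 2 different in hypg60 against hypg9 (7.67%). With an exon length offset, the members called were 8 lower in hypg7 (6.87%), 5 higher in heat (15.1%) and 2 different in hypg60 against hypg9 (5.81%). With RLE scaling, the members called were 3 higher in hypg9 (10.1%). With library 75, the members called were 19 lower in hypg15 (15.3%). Without control library 3, the counts were 12 lower in hypg75s (12.6%), 6 higher in hypg75s (13.7%), 22 lower in hypg3 (21.5%), 6 higher in hypg3 (14.2%), 0 lower in hypg5 (0.993%), 1 higher in hypg5 (3.53%), 4 lower in hypg7 (5.95%), 1 higher in hypg7 (5.93%), 6 lower in hypg9 (8.36%) and 5 higher in hypg9 (9.68%). Leaving out single libraries gave 6 to 26 lower in hypg20s (4.06 to 16.4%), 2 to 6 higher in hypg20s (4.67 to 9.74%), 33 to 34 lower in hypg15 (24.7 to 28.3%), 8 to 10 higher in hypg15 (21.5 to 26.2%), 12 to 29 lower in hypg60 (9.63 to 22.2%), 6 higher in hypg60 (19.9 to 21.2%), 17 lower in wait1min (37.8 to 39.5%), 32 higher in wait1min (40.2 to 41.7%), 17 lower in wait4min (38.6 to 39.7%), 31 to 32 higher in wait4min (40.6 to 42%), 16 to 18 lower in wait15min (38.6 to 39.5%), 31 to 32 higher in wait15min (40.7 to 42%), 4 to 7 lower in heat (7.52 to 9.45%), 0 to 3 higher in heat (7.86 to 10.2%), 0 different in wait15min against wait1min (0.0677 to 0.214%) and 46 to 49 different in heat against wait1min (78.5 to 80.1%). Each count of members higher after 300 g, and each count that differed between heat and wait1min, includes KIF21A and is lower by 1 without it. In hypg20s and hypg60 only the libraries 3, 16, 44 and 9 were left out in turn. The GC offset moved the median over all genes to −0.038 in hypg20s, −0.023 in hypg75s, −0.070 in hypg3, −0.070 in hypg15 and 0.13 at each waiting time. Turned values near these lie close to that of all genes. With the GC offset, these log2 fold changes of members named by the rule for named genes turned in sign, calls made only there included. In hypg20s −0.092 for CENPM, 0.074 for CENPW, −0.10 for CENPX and −0.085 for KIF22. In hypg75s −0.14 for CENPM, −0.11 for KIF22 and −0.0089 for KIF26A. In hypg3 −0.11 for CENPB, −0.19 for CENPM, −0.0042 for CENPT, −0.017 for KIF21B, −0.10 for KIF22 and −0.12 for KIF26A. In hypg15 −0.15 for CENPB, −0.19 for CENPM, −0.079 for CENPO, −0.048 for CENPT, −0.24 for CENPX, −0.016 for KIF1C, −0.082 for KIF22 and −0.073 for KIF26A. In wait1min 0.037 for CENPA, 0.023 for CENPM, −0.84 for CENPQ, −0.0028 for CKAP5, 0.43 for KIF18B, 0.20 for KIF21B and 0.19 for KIF22. In wait4min 0.021 for CENPA, 0.0044 for CENPM, −0.88 for CENPQ, −0.051 for CKAP5, 0.46 for KIF18B, 0.20 for KIF21B, 0.19 for KIF22 and 0.045 for KIF26A. In wait15min 0.062 for CENPA, 0.0069 for CENPM, −0.89 for CENPQ, −0.025 for CKAP5, 0.47 for KIF18B, 0.21 for KIF21B and 0.19 for KIF22. With the exon length offset, these log2 fold changes of members named by the rule for named genes turned in sign, calls made only there included. In wait1min 0.14 for CENPA, −0.053 for CKAP5, −0.28 for KIF1B and −0.40 for KIF5A. In wait4min 0.13 for CENPA, −0.11 for CKAP5, −0.30 for KIF1B and −0.41 for KIF5A. In wait15min 0.18 for CENPA, −0.091 for CKAP5, −0.22 for KIF1B and −0.37 for KIF5A. With total-count scaling, these log2 fold changes of members named by the rule for named genes turned in sign, calls made only there included. In wait1min 0.090 for CENPA and 0.24 for CENPW. In wait4min 0.092 for CENPA, 0.20 for CENPW and 0.075 for KIF18B. In wait15min 0.13 for CENPA, 0.15 for CENPW and 0.081 for KIF18B. Beyond these, CENPH turned from higher to lower after 300 g with the GC offset (−0.24, −0.18 and −0.22 at the 3 waiting times) and KIF13B from lower to higher (0.36, 0.32 and 0.34). The cause of these differences was not tested. No paired analysis was possible because the groups compared share no replicate numbers. Depth limits the lowest members, KIF21A and KIF6, whose counts are small.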
